A study of Drosophila melanogaster with 4 samples.

Results

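Narrow gaps inside H3K27me2 domains are the short interruptions that separate long stretches of chromatin enriched for histone H3 dimethylated at lysine 27. They were chosen by the positions and lengths of the enriched regions in the combined list that the authors deposited for both ChIP replicates. A gap was counted when it measured 1 to 3000 bp and lay between 2 consecutive enriched regions of at least 3000 bp each, on 2L, 2R, 3L, 3R or X. Of 15005 gaps between consecutive enriched regions on these arms, 2649 met this rule. The chromatin came from nuclei of Oregon-R larvae (Oregon-R-modENCODE, genotype wild type) in instar 3, and it was immunoprecipitated with the antibody Ab24684. The design has 2 ChIP samples and 2 input samples, and 1 list of enriched regions for each ChIP replicate was used beside the combined list. All samples share the strain, the genotype and the stage, and every position is an average over the cell types that gave the nuclei.

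H3K27me2 is placed by E(z), the methyltransferase of Polycomb repressive complex 2 (PRC2). In flies it is known as a broad mark that lies over much of the chromatin that is not transcribed. The trimethyl state, H3K27me3, is known to build up at the targets of Polycomb repression, and the demethylase Utx removes methyl groups from this lysine. The dimethyl mark is known to be low over active genes. The deposited lists hold no reads, so a gap is an interval with no called region, and the level of the mark inside it is unknown. Release 5 positions were not set against genes here, and no gene is named for a gap.

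The lists behind the gaps were of similar size. On the large arms there were 15024 enriched regions in the combined list, 14573 in replicate 1 and 13804 in replicate 2. They covered 53.1%, 43.6% and 37.9% of the arms. Read depth is unknown, so no counting error can be given. Nothing in the labels says that the replicates were separate collections of larvae, and the spread between them may be technical.

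Of 3366 pairs of neighbouring regions that both reached 3000 bp, 78.7% were separated by a narrow gap. Over all 15005 gaps between regions of any length, 71.1% measured 1 to 3000 bp, so short distances were common throughout the list. Of the 6652 regions of this length, 1201 (18.1%) had a narrow gap on both sides, 2896 (43.5%) on 1 side and 2555 (38.4%) on no side. The gaps together took up 2090 kb, which was 6.14% of the bases of the gaps and their 4097 flanking regions. On these arms 14 further pairs of regions abutted with no base between them and are not among the gaps. A single gap was overlapped by a region that the combined list types as depleted. No depleted region of replicate 1 or replicate 2 touched a gap.

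Short gaps were the most frequent. The median length was 545 bp, the quartiles were 206 and 1177 bp, and the longest gap measured 2980 bp. A total of 360 gaps (13.6%) were shorter than 100 bp and another 285 (10.8%) measured 100 to 199 bp. The number per 100 bp of length fell from 360 in the shortest step to 20 in the last. The 799 gaps of 1000 bp or more were 30.2% of the gaps and held 66.8% of the gap bases. By the same rule, replicate 1 alone had 1957 narrow gaps with a median of 691 bp, and replicate 2 had 1575 with a median of 683 bp. The 3 longest gaps inside the limit measured 2978, 2979 and 2980 bp, and the 3 shortest ones outside it measured 3017, 3020 and 3022 bp. Shorter flanks just inside the limit measured 3000, 3000 and 3001 bp, and just outside it they were all 2999 bp.

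**Figure D1:**
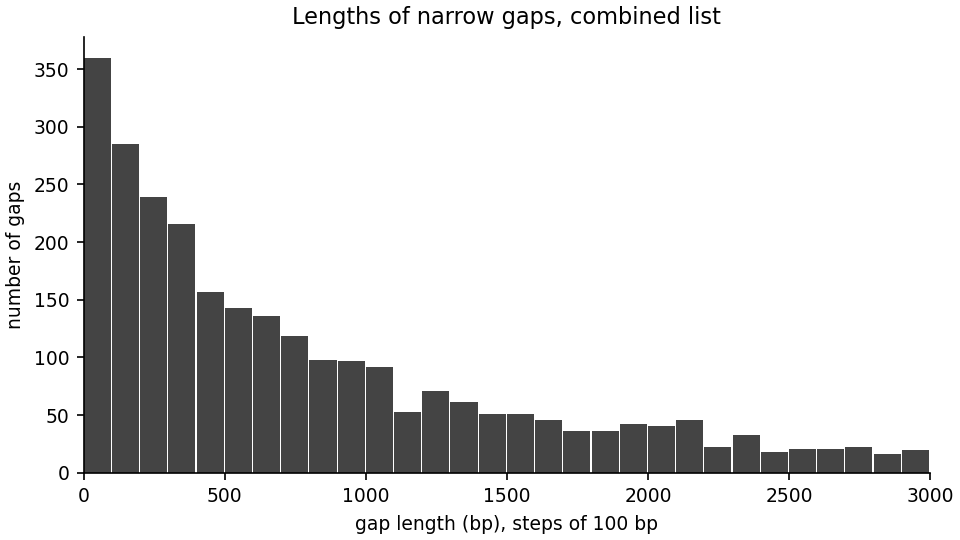
Number of narrow gaps of the combined list (vertical axis) by gap length in bp (horizontal axis, steps of 100 bp). The first step holds 360 gaps, the second 285 and the last 20.

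The longest gaps showed how a domain can be interrupted at kilobase scale in both replicates. The longest lay at 3R:12307020-12309999, between a region of 3.16 kb scored 0.78 and one of 12.7 kb scored 0.82. The score is the authors' own enrichment value for a region, and the sources used here do not state its scale. In replicate 1, 4.06% of that gap was covered and in replicate 2 none of it, while each flank was covered by at least 84.2% in both. The next longest, at 2R:2811288-2814266, measured 2979 bp and had 2.22% of its bases covered in replicate 1 and none in replicate 2. The gap at 3R:21174654-21177631 measured 2978 bp, with none covered in replicate 1 and 0.369% in replicate 2. At all 3 places both replicates were open over nearly the whole gap.

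The shortest gaps were single bases. A length of 1 bp occurred at 5 places, 2L:3682283, 2R:6058278, 2R:10420149, 2R:17234139 and X:10081632. Replicate 1 had no region over any of these bases, and its own uncovered stretch there measured 167 to 1073 bp. Replicate 2 had a region over the base at 3 of the 5, namely at 2R:6058278, 2R:10420149 and X:10081632. At the other places its uncovered stretches measured 1766 bp (2L) and 322 bp (2R). A gap of 1 bp in the combined list was therefore a wider opening in replicate 1, and in replicate 2 it was either a wider opening or none.

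The regions beside a gap scored about as other long regions did. Over both flanks the median score was 0.67, with quartiles of 0.54 and 0.81 and a range of 0.08 to 1.70. All regions of at least 3000 bp on the arms had a median score of 0.65, and all enriched regions 0.48. Flanks of gaps of 3001 to 10000 bp between long regions had a higher median score, 0.71, at a median length of 5791.5 bp. The median length of the flanks of narrow gaps was 5838.5 bp. Long regions with no narrow gap beside them had a median score of 0.63 and a median length of 4813 bp. Those with a gap on 1 side had 0.65 and 5584 bp, and those with gaps on both sides had 0.69 and 6252 bp. Longer flanks scored higher, with a Spearman coefficient of 0.471 across flanks, so score and length cannot be told apart in this order. These scores belong to the list that chose the gaps, and they are given as a description.

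The sides of a gap resembled each other only loosely. Left flanks had a median score of 0.67 and right flanks 0.66, and the right flank was the higher one at 49.6% of gaps. The absolute difference between the sides had a median of 0.15, an upper quartile of 0.27 and a maximum of 1.15. Across gaps, the scores of the sides were weakly related (Spearman coefficient 0.263, Pearson coefficient 0.279). For 506 gaps of 3001 to 10000 bp between long regions the Spearman coefficient was 0.275. It was -0.012 for the 8024 gaps of 1 to 3000 bp with at least 1 flank under 3000 bp. Neighbouring gaps in a domain share a flank, and all points come from the same libraries, so these coefficients are descriptions. The longer flank was the higher scored one at 65.7% of gaps. Gap length had almost no relation to the mean score of the flanks (Spearman coefficient -0.07 across gaps).

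**Figure D2:**
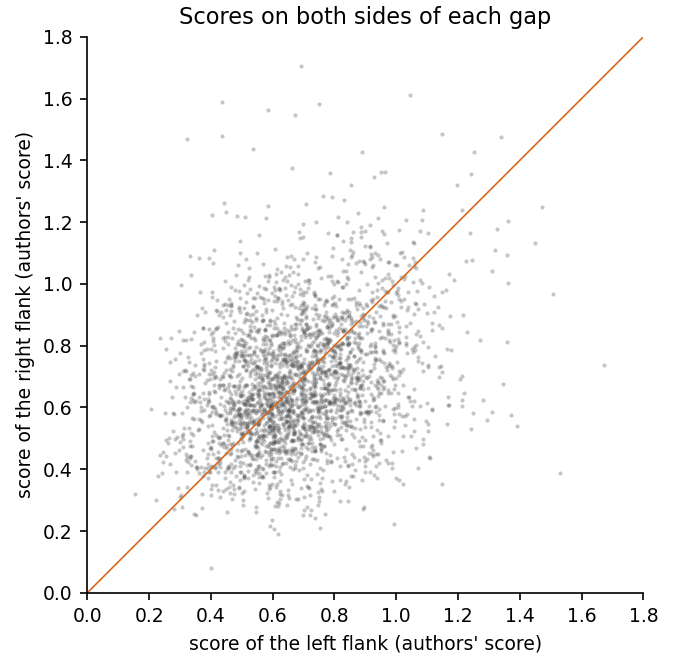
Score of the right flank (vertical axis) against score of the left flank (horizontal axis) for each of the 2649 narrow gaps, both as the authors' score of the combined list. The line marks equal scores. Points spread widely on both sides of it, with medians of 0.67 and 0.66.

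The replicates left most gap bases uncovered. Enriched regions took up 1.59% of gap bases in replicate 1 and 12.2% in replicate 2. The mean was 6.89% ± 7.51 (SD, n = 2). Of the flanking bases, with a region counted once for each gap it borders, 87.9% were covered in replicate 1 and 78.5% in replicate 2. The difference between gap and flank was -86.3 percentage points in replicate 1 and -66.3 in replicate 2. These differences averaged -76.3 ± 14.1 (SD, n = 2). With 2 samples the smallest p of an exact sign-flip permutation test, two-sided, is 0.5, so the difference was not tested. The combined list was made for these same 2 libraries, so its gaps are not independent of the replicate lists, and low cover inside them is no separate evidence.

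Each gap was then sorted by what each replicate did there. Replicate 1 covered no base of 2052 gaps (77.5%), some bases of 565 and every base of 32 (1.21%). Replicate 2 covered no base of 1545 gaps (58.3%), some bases of 834 and every base of 270 (10.2%). A replicate was said to break at a gap when at least 1 gap base lay in none of its regions. Replicate 1 broke at 2617 gaps (98.8%) and replicate 2 at 2379 (89.8%). Over all 10673 gaps of 1 to 3000 bp on these arms, 98.5% were broken in replicate 1 and 91.9% in replicate 2.

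Both replicates broke at 2348 of the 2649 gaps, or 88.6%. Among all gaps of 1 to 3000 bp the share was 90.5%, and among those with a flank under 3000 bp it was 91.1%. A break in both was thus about as frequent at gaps between long regions as at other gaps of this size. Lengths were not matched in this comparison. The narrow gaps had a median of 545 bp and those with a flank under 3000 bp one of 742.5 bp, and this count rises with length. At 269 gaps replicate 1 broke while replicate 2 ran through, and at 31 gaps it was the reverse. At 1 gap, of 24 bp, neither broke. Gaps that replicate 2 bridged while replicate 1 was fully open numbered 248, with a median length of 158 bp. The 30 gaps bridged in replicate 1 and fully open in replicate 2 had a median of 35 bp. The combined list thus followed the breaks of replicate 1 more often than those of replicate 2.

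With the strict reading, that neither replicate covered a single gap base, 1051 gaps (39.7%) were open in both. The share over all gaps of 1 to 3000 bp was 40.2%, so open gaps were no more frequent between long regions. These 1051 gaps had a median length of 533 bp, and the mean of the flank scores had a median of 0.67, as over all narrow gaps. Gaps open in replicate 1 and partly covered in replicate 2 numbered 753 (median 721 bp), and those partly covered in replicate 1 and open in replicate 2 numbered 464 (median 670 bp). The median of the mean flank score ran from 0.66 to 0.69 over the combinations of states with more than 1 gap. It was 0.67 both for gaps open in replicate 1 and bridged in replicate 2 and for gaps open in both.

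A break can also come from a replicate that has no region on a flank. Replicate 1 covered at least 1 base of both flanks at 2591 gaps (97.8%) and replicate 2 at 2458 (92.8%). Both replicates had a region on each flank and a break between them at 2115 gaps (79.8%). This was so at 36.3% of all gaps of 1 to 3000 bp, at 21.9% of those with a short flank and at 89.1% of the gaps of 3001 to 10000 bp between long regions. Short flanks offer fewer bases to touch, so this contrast follows in part from the length limit of the rule. At most narrow gaps both replicates thus broke and had at least 1 covered base on either side. This count does not show how much of each flank was covered.

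Where a replicate broke, its longest opening at a gap was mostly wider than the gap in the combined list. The longest uncovered stretch that overlapped a gap had a median of 1255 bp in replicate 1 and 1695 bp in replicate 2. These medians are over the gaps broken in that list. Such a stretch need not span the whole gap. Taking the longest stretch and leaving out bridged gaps both raise these values. The ratio of this stretch to the gap had a median of 1.76 in replicate 1 and 2.33 in replicate 2. Stretches stayed within 3000 bp at 2327 of the broken gaps in replicate 1 (88.9%) and at 1761 in replicate 2 (74.0%). At 1568 gaps, 59.2% of all, both replicates broke with a stretch of at most 3000 bp. This was so at 31.5% of all gaps of 1 to 3000 bp, whose flanks were less covered in both replicates. The centres of these paired stretches lay a median of 229.3 bp apart, with quartiles of 94.4 and 536.8 bp. The stretches shared at least 1 base at 1567 of the 1568 gaps, which follows largely from both having to touch the same gap.

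The length of a gap went with how often it was bridged. In replicate 2, 33.3% of the bases of gaps shorter than 100 bp were covered, 22.5% at 200 to 499 bp, 15.1% at 500 to 999 bp and 8.59% at 2000 to 3000 bp. In replicate 1 the share fell from 10.5% to 2.76%, 1.44% and 1.23% in the same classes. Both replicates broke at 225 of the 360 gaps shorter than 100 bp (62.5%), at 558 of 593 gaps of 500 to 999 bp (94.1%) and at 259 of 260 gaps of 2000 to 3000 bp (99.6%). A longer gap has more bases that can stay uncovered, so this count rises with length by its definition. The count of gaps with no covered base in either replicate does not share this direction and ran from 36.5% to 42.2% over the 6 length classes.

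The most direct comparison takes gaps from 1 replicate and reads them in the other, which had no part in choosing them. The 1957 narrow gaps of replicate 1 had 34.8% of their bases covered in replicate 2, against 82.2% of their flanks. The 1575 narrow gaps of replicate 2 had 49.8% covered in replicate 1, against 88.7% of their flanks. The differences were -47.4 and -38.9 percentage points, and on each of the 5 arms in both directions the gaps lay below their flanks, with differences of -49.3 to -34.0 points. Over all bases of the large arms cover was 37.9% in replicate 2, slightly above that of the gaps read there, and 43.6% in replicate 1, below that of the gaps read there. The 2 directions use the same pair of libraries and are not replicates of each other, so no test was made.

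Single gaps carried over to the other replicate only in part, and their standing against all gaps of the size depended on the measure. Replicate 2 broke at 1436 of the 1957 gaps of replicate 1 (73.4%), where the share over all gaps of 1 to 3000 bp of replicate 1 was 79.1%. Replicate 1 broke at 991 of the 1575 gaps of replicate 2 (62.9%), against 68.2% over all such gaps of replicate 2. Both shares lay a little below that of all gaps of the size. With a region on each flank also required, the shares were 68.3% and 59.9%, where all gaps of this size gave 49.2% in each direction. Longer flanks are touched more easily, so the flank limit bears on this contrast. Where both lists had to hold a narrow gap by the full rule, 461 gaps coincided by at least 1 base, 23.6% of those of replicate 1 and 29.3% of those of replicate 2. Of all gaps of 1 to 3000 bp, 9.40% in replicate 1 met a narrow gap of replicate 2 and 12.8% in replicate 2 met one of replicate 1. Of the gaps of the combined list, 1172 (44.2%) met a narrow gap of replicate 1, 606 (22.9%) met one of replicate 2, 336 (12.7%) met both and 1207 (45.6%) met neither. The shares over all gaps of 1 to 3000 bp of the combined list were 12.1%, 7.22%, 3.34% and 84.0%. These contrasts are partly built in, since all the lists were held to the same flank limit.

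Cover in the other replicate was highest for the shortest gaps. For gaps of replicate 1 shorter than 100 bp, 55.6% of bases were covered in replicate 2, and this fell to 40.4% at 500 to 999 bp and 28.7% at 2000 to 3000 bp. For gaps of replicate 2 read in replicate 1 the shares were 68.4%, 54.1% and 44.1%. Even the shortest class lay below its flanks, with a difference of -28.5 points in the first direction (84.0% of flank bases covered) and -21.7 points in the second (90.1%). Replicate 2 bridged 55.5% of the shortest gaps of replicate 1 entirely, and 6.02% of the longest. Replicate 1 bridged 65.5% and 5.81% of those of replicate 2. The share of gaps with no covered base did not fall in step with bridging. Replicate 2 was fully open at 36.0% of the shortest and 38.6% of the longest gaps of replicate 1. Replicate 1 was fully open at 27.7% of the shortest and 12.8% of the longest gaps of replicate 2.

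**Figure D3:**
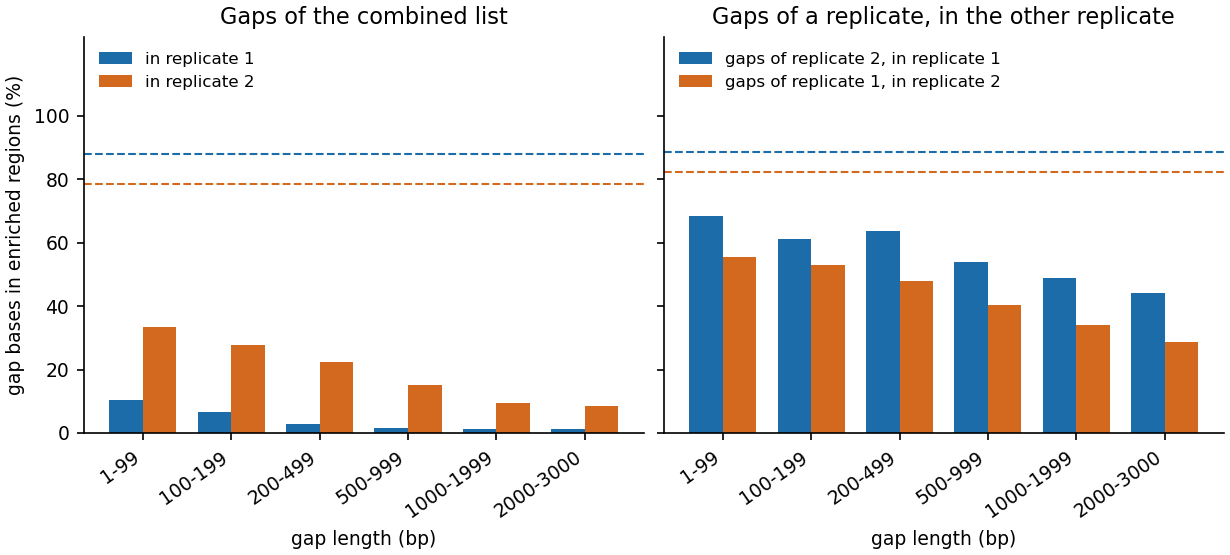
Percent of gap bases inside enriched regions (vertical axis) by gap length in bp (horizontal axis), for gaps of the combined list on the left and for gaps of each replicate read in the other on the right. Blue bars are cover in replicate 1, orange bars cover in replicate 2, and dashed lines show the flanks of all gaps in the same list. Cover falls from 55.6% to 28.7% for gaps of replicate 1 and from 68.4% to 44.1% for gaps of replicate 2.

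Cover rose steeply at the edge of a gap, reached a peak inside the flanks and then fell a little. In the first 100 bp of the flanks of the combined gaps, 33.0% of bases were covered in replicate 1 and 34.0% in replicate 2. From 501 to 600 bp into the flanks the shares were 79.0% and 69.4%, and from 1001 to 1100 bp they were 87.5% and 78.0%. The peak was 93.1% at 1701 to 1800 bp in replicate 1 and 82.7% at 1501 to 1600 bp in replicate 2. At 2901 to 3000 bp the shares were 88.0% and 77.1%. The cause of this fall was not tested. Inside the gap the shares are of gaps, each counted once whatever its length, and not of bases. They are thus higher than the shares of gap bases given above. The middle stood at 2.11% in replicate 1 and 17.2% in replicate 2, and the outermost parts of the gap reached at most 6.72% and 23.3%. For gaps chosen in the other replicate the slope was gentler. The middle of the gaps of replicate 1 stood at 40.4% in replicate 2, the first 100 bp of their flanks at 53.4% and the bases from 1001 to 1100 bp at 83.0%. The gaps of replicate 2 had 52.7%, 69.8% and 88.9% in replicate 1. Both sets thus showed a dip at the gap that extended into each flank.

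**Figure D4:**
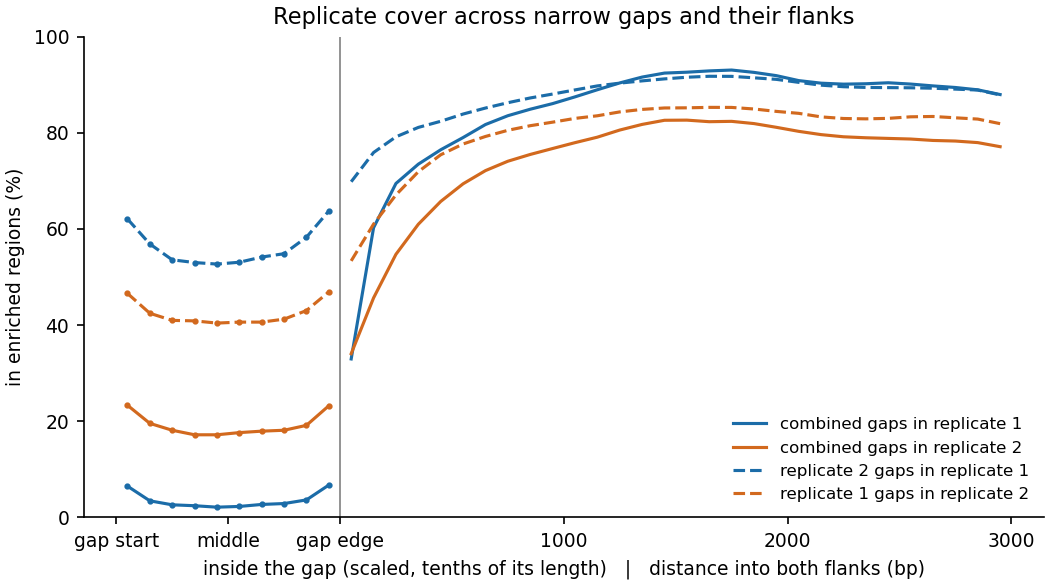
Percent inside enriched regions (vertical axis) across narrow gaps, scaled to their length, and at increasing distance in bp into both flanks (horizontal axis). Inside the gap it is the percent of gaps, each counted once whatever its length, and in the flanks the percent of bases. Solid lines are gaps of the combined list, dashed lines gaps of 1 replicate read in the other, blue in replicate 1 and orange in replicate 2. The dashed lines dip to 52.7% and 40.4% in the middle of the gap.

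Some narrow gaps followed each other along a domain. A run of long regions joined only by narrow gaps is called a chain here. The 2649 gaps fell into 1448 chains, of which 838 had a single gap and 610 (42.1%) had 2 or more. These 610 held 1811 gaps, 68.4% of all. The share for gaps placed without regard to each other was not computed. The chain counts are thus a description and do not show that gaps cluster. Chains of at least 5 gaps numbered 73, and 1 chain had 15. Chains spanned a median of 17447 bp, 112 of them reached 50 kb, and together they took in 34.0 Mb, 28.6% of the large arms. Single regions of at least 3000 bp had a median of 5317 bp. A chain joins at least 2 of them, so its greater length is built in.

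Spacing along a chain was irregular. The centres of neighbouring gaps lay a median of 6993 bp apart over 1201 spacings, with quartiles of 5119 and 10522 bp and a range of 3094 to 59771 bp. The lower end is set by the 3000 bp that each region in between had to reach. Within the 73 chains of at least 5 gaps the SD of the spacings divided by their mean had a median of 0.510 and ran from 0.0607 to 0.978. Successive spacings in a chain had a Spearman coefficient of 0.0960 over 591 pairs, and the lengths of neighbouring gaps one of -0.02. The size of a gap or interval thus said little about the next one in the chain.

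The chain with the most gaps lay at 3R:18621133-18870915 and spanned 249.8 kb. Its 15 gaps measured 67 to 2862 bp and held 9681 bases, and its regions scored 0.48 to 1.02. Replicate 1 covered 91.4% of its regions and 0.310% of its gap bases. Replicate 2 covered 84.5% and 6.32%. Replicate 1 broke at 15 of the 15 gaps and replicate 2 at 13, the exceptions being a gap of 105 bp at 3R:18634124-18634228 and one of 67 bp at 3R:18806273-18806339. The widest gap, 3R:18707204-18710065 with 2862 bp, had 0.280% of its bases covered in replicate 1 and none in replicate 2. Between the neighbouring gaps of this chain the distance ran from 4498 bp to 44.2 kb. The same stretch held 16 regions in the combined list, 30 in replicate 1 and 47 in replicate 2, so the replicates broke it at further places.

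**Figure D5:**
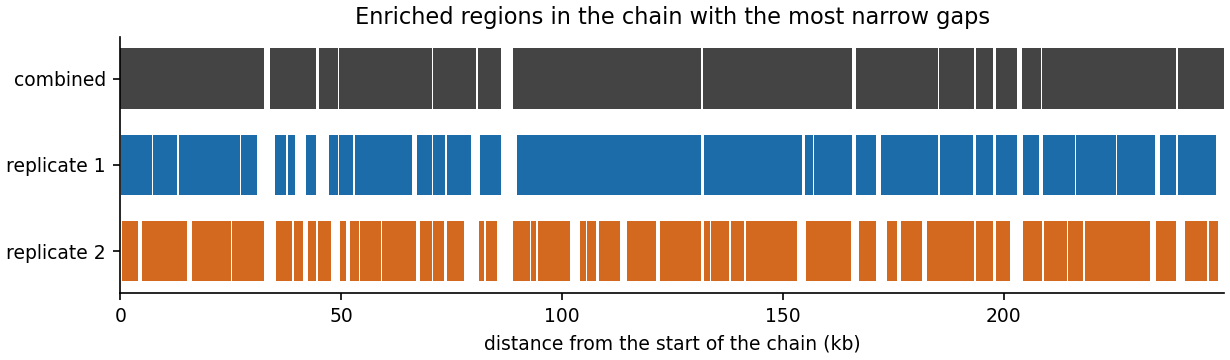
Enriched regions (filled bars) of the combined list and of both replicates along the chain with 15 narrow gaps, by distance from the start of the chain in kb (horizontal axis). White spaces are gaps, and those of about 100 bp are narrower than the drawing can resolve. The widest space in the combined list is the gap of 2862 bp, with 0.280% of its bases covered in replicate 1 and none in replicate 2.

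A further 5 chains had 10 gaps each. The chain at 3L:22295682-22537661 spanned 242.0 kb and began with the longest region next to any gap, 105425 bp. Among the 6 named chains it had the highest cover of its regions, 96.5% in replicate 1 and 91.0% in replicate 2, and also the highest cover of its gaps, 8.91% and 22.0%. Both replicates broke at 9 of its 10 gaps. At 3L:17086875-17230328 the chain spanned 143.5 kb with gaps of only 6 to 834 bp, and both replicates broke at 10 of 10, replicate 1 with no gap base covered. The chain at X:19866500-20004187 (137.7 kb) had regions scored up to 1.36 and 0.487% and 2.39% of its gap bases covered. The chain at 3L:22070807-22180064 (109.3 kb) had the largest sum of gap bases among the 6 named chains, 9946, with 1.86% and 3.06% covered. The most compact was 3R:13545094-13619684, 74.6 kb with 1.24% and 11.0% covered. In this chain and in the one on X both replicates broke at 8 of 10 gaps. In the chain at 3L:22070807-22180064 they did so at 9 of 10.

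Some gaps stood between very long regions. The gap with the longest shorter flank, 2L:921794-922251, measured 458 bp between regions of 44.7 and 55.3 kb scored 1.06 and 1.05. Replicate 1 covered 21.8% of it and replicate 2 none. At 3R:18752653-18752944, 292 bp between 42.6 and 33.8 kb, cover was 0% in replicate 1 and 0.342% in replicate 2. At 3R:23235405-23235563, 159 bp between 33.1 and 55.5 kb, and at 2R:20349183-20349221, 39 bp between 46.3 and 30.5 kb, neither replicate covered a base. The 39 bp were an uncovered stretch of 480 bp in replicate 1 and 979 bp in replicate 2. At 2L:4286432-4287054, 623 bp between 58.1 and 28.9 kb, replicate 1 covered 1.12% and replicate 2 none. Both replicates thus broke at each of these 5 gaps, beside flanks of which at least 71.3% was covered in each.

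Among gaps that were open in both replicates, 4 of the 5 with the highest scored flanks lay on X. Of all 1051 gaps open in both, 226 lay on X. At X:19807306-19808539, a gap of 1234 bp, the flanks scored 1.34 and 1.48, and the uncovered stretch measured 1438 bp in replicate 1 and 1619 bp in replicate 2. At X:21794774-21795167 (394 bp) they scored 1.25 and 1.43, with stretches of 531 and 3763 bp. At X:2265948-2265991 the gap of 44 bp had scores of 1.20 and 1.32, and stretches of 105 and 243 bp. At X:1333137-1333478 (342 bp) the scores were 1.32 and 1.18, with stretches of 1065 and 1123 bp. The remaining one, 2L:22756949-22758212 (1264 bp), had scores of 1.24 and 1.36 and stretches of 1584 and 4023 bp. Over all narrow gaps the median flank score was 0.73 on X and 0.63 to 0.70 on the other arms. The 5 gaps were ranked by this score, so their location is not a separate result.

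Gaps were spread over all 5 arms. There were 699 on 3R, 527 on 3L, 483 on 2R, 473 on X and 467 on 2L. Per Mb of sequence the count was highest on 3R, at 25.05, and lowest on 2L, at 20.3, with 22.8, 21.5 and 21.1 on 2R, 3L and X. Per Mb of enriched regions the range was narrower, 39.8 on 2L to 43.9 on 3R. Median lengths ran from 489 bp on 3R to 594 bp on X. Both replicates broke at 91.8% of gaps on X and at 86.9% to 88.8% on the other arms. In replicate 2, cover of gap bases was 8.53% on X and 12.5% to 13.8% on the other arms, and cover of the flanks was also lowest on X (72.2% against 77.7% to 81.1%). In replicate 1, X had the highest gap cover, 2.17%, so the order of the arms was not shared by the replicates.

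The number of gaps varied along the arms. Over 117 whole bins of 1 Mb the count ran from 1 to 44 with a median of 23. Its Spearman coefficient with the enriched share of the bin was 0.801 across bins. The rule needs long enriched regions of the same list beside each gap, so this relation is largely built in and nothing is read from it. The fullest bin was 2R:16000001-17000000 with 44 gaps at 70.8% enriched, followed by 3R:13000001-14000000 with 42 and 3L:22000001-23000000 with 41. The emptiest was 2L:21000001-22000000, with 1 gap at 26.8% enriched.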

How the data were processed

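The submitters' processing notes name Bowtie 0.12.7 as the aligner, and the headers of the files name FlyBase release 5 as the build. The authors deposited enriched and depleted regions, each with a start, an end and a score, as 1 list per ChIP replicate and 1 combined list. The caller, its thresholds, the use of input and the way of combining are not stated in the sources used here. They can set the shortest gap, and depth is unknown. Lists of the input samples were not used here.

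Enriched regions were sorted by start, and gaps, flanks, covered bases and chains were computed in Python 3.11.15 with numpy 2.4.6, scipy 1.17.1 and matplotlib 3.10.9. The script was checked on simulated lists with planted gaps. Values are given per replicate with mean and SD (n = 2), and no test was made. Named gaps are the 5 with the longest shorter flank, the 5 with the highest lower flank score among those open in both replicates, the 3 longest and the shortest with ties, and named chains are the 5 with the most gaps, or 6 with ties. Single gaps of the first chain, the 1 Mb bins and the counts at the ends of a range were chosen after their values were seen. The members and lists were chosen with earlier results of these data known. The planned count of gene starts in gaps was not made.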

Additional observations from a re-analysis of the deposited data

How the results depend on the processing

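Of 48 alternatives to 8 results, 6 leave 1 of 2 values out of a mean and cannot move beyond their SD, so they say nothing about stability. Of the other 42, 26 stayed within the spread set for the result and 16 did not. That spread was the SD between replicates, a factor of 1.5 for a count or, for breaks in both, the exact 95% binomial interval, which treats the gaps as independent and is only a yardstick. The difference between gap and flank stayed below 0 in all 5 of its alternatives, some of which leave a replicate out. Its gaps are the uncalled intervals of a list made for the same libraries. The sign is thus largely built in and says nothing about stability. The number of gaps was 4942 with flanks of at least 2000 bp and 1038 with 5000 bp, since the limit selects regions by length. The median gap length was 609 bp and 479.5 bp with these flanks, 795 bp without gaps under 200 bp and 606.5 bp with regions at or above the median score. The spread used for it was only that between the replicates' own lists. The difference between gap and flank was -61.0 points over the nearest 1000 bp of the flanks, and -86.3 to -66.3 with either replicate left out. Cover of the gaps was 1.59% to 12.2% with either left out. Both replicates broke at 80.1% of gaps when under 50% cover was required, at 39.7% with no base covered, at 79.8% with a region on each flank and at 94.2% without gaps under 200 bp. With either replicate left out, the other alone broke at 89.8% to 98.8%. The median spacing was 5488 bp and 9577 bp with flanks of 2000 and 5000 bp, 7287 bp with gaps up to 5000 bp and 7812 bp with regions at or above the median score. Gaps of 1 replicate read in the other had 34.8% to 49.8% covered. Where no reason is given, the cause was not tested. The median score restriction on spacing, the 200 bp minimum for cover and the single-replicate breaks were added after seeing the data. No paired analysis was possible because equal replicate numbers only link a ChIP sample to its input, and input had no list in use. The alternative for gene starts was not run.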
